A study of Homo sapiens with 6 samples.

Results

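Long non-coding RNAs are transcripts that act, where a role is known, without being translated. Probes for 10 of the best-studied ones were examined in pancreatic tumors treated with Deferasirox (DFX), an oral iron chelator: MALAT1, NEAT1, H19, GAS5, MEG3, HOTAIR, TUG1, PVT1, UCA1 and SNHG1. A probe belonged to a member when the array design gave it exactly that gene name. These are 10 of the 36337 gene names on the array. The rule found 56 of its 50599 probes and used no measured value. After the detection filter 54 of the 56 remained, with at least 1 for each RNA, among 31807 tested probes in all. BxPC-3, a line from a human pancreatic adenocarcinoma, was grown as xenografts under the skin of female BALB/c (nu/nu) mice, which lack a thymus and so most T cells. The control group was 3 tumors from mice given the vehicle alone, and the DFX group was 3 tumors from mice given 200 mg/kg by oral gavage on alternate days, 3 times a week, for 21 days. The mice were 8 to 10 weeks old when the experiment began, and all tumors came from 1 cell line mixed with Matrigel, a basement membrane extract, so the host supplied the vessels, stroma and blood. Labeled RNA from each tumor was hybridized to its own one-color human 60-mer array, and levels are given as quantile-normalized log2 intensities, on which a difference of 1 is a doubling of signal.

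These RNAs fall into a few groups by what they are known to do. MALAT1 and NEAT1 are abundant nuclear RNAs made from neighboring genes. MALAT1 gathers in nuclear speckles, which store splicing factors, and the long form of NEAT1 is the scaffold of paraspeckles, nuclear bodies that hold RNA and RNA-binding proteins. H19 and MEG3 are imprinted RNAs, each expressed from the maternal chromosome beside a paternally expressed growth gene. GAS5 and SNHG1 carry small nucleolar RNAs in their introns, and their spliced transcripts are targets of nonsense-mediated decay, the pathway that removes RNAs with early stop codons. HOTAIR is transcribed from the HOXC cluster and has been studied for its link to polycomb repression, TUG1 is a widely expressed RNA, PVT1 lies beside the MYC oncogene, and UCA1 was named for its high level in bladder cancer. Deferasirox binds iron, and iron is needed by enzymes of DNA synthesis and of oxygen sensing. All 10 names matched a RefSeq gene of GRCh38.p14, which lists 9 of them as lncRNA and TUG1 as protein-coding.

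The measurements rest on short probes, and the sequences below are those on which the comparisons turn. The array files give them with hg19 positions. The exons and introns of hg19 were not used here, so each position is given without them. The first pair is shown because it holds the single HOTAIR probe that passed the test. A_19_P00330814 lies at chr12:54356620-54356679 and A_32_P168442 at chr12:54356661-54356720, both on the minus strand, and capitals mark the 19 bases they share.
HOTAIR A_19_P00330814: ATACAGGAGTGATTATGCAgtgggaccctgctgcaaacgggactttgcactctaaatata
HOTAIR A_32_P168442: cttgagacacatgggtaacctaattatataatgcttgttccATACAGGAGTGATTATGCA
The next pair is shown because it holds the most 5′ NEAT1 probes, which had the largest differences of that RNA. A_21_P0011024 at chr11:65192168-65192227 and A_19_P00318409 at chr11:65192209-65192268 lie on the plus strand, and they have 19 bases in common, in capitals.
NEAT1 A_21_P0011024: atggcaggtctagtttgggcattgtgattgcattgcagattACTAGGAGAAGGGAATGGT
NEAT1 A_19_P00318409: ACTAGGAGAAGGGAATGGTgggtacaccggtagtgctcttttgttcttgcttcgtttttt
MALAT1 is shown by its most 5′ and most 3′ probes, at chr11:65267042-65267101 and chr11:65273871-65273930 on the plus strand, because they bound the stretch over which its 8 probes were compared.
MALAT1 A_21_P0010981: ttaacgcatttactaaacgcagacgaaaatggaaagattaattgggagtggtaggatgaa
MALAT1 A_19_P00805006: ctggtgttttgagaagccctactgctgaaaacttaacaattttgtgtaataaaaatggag
The last 4 are shown because each stands for its RNA alone or as its brightest probe. H19 was read at chr11:2016674-2016733, GAS5 at chr1:173833049-173833108 and SNHG1 at chr11:62619573-62619632, all on the minus strand, and UCA1 at chr19:15946035-15946092 on the plus strand.
H19 A_24_P52697: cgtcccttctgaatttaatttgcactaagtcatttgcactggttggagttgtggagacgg
GAS5 A_33_P3326285: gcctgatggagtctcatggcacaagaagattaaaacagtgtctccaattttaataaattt
SNHG1 A_24_P785293: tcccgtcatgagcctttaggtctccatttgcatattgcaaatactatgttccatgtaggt
UCA1 A_32_P200238: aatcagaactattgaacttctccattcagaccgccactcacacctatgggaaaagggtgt

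The slide held controls in row 1 and treated tumors in row 2, so row and treatment cannot be told apart. The share of probes well above background was 50.3% in DFX replicate 2 and 53.9% to 56.5% elsewhere, and no spot was saturated. The epithelial identity of the line was visible in both groups, since all 8 epithelial markers were well above background on every array. Among 12 epithelial probes, 3 passed the unadjusted test, all higher under DFX, and 0 passed adjustment. They belonged to KRT8, EPCAM and KRT18 (0.48, 0.43 and 0.27). Dimmer probes of KRT8 differed by 0.24 and −0.12 and that of KRT18 by 0.15, and none of these passed. Markers of host cells differed in both directions, and none passed adjustment. Of the red blood cell probes 4 of 10 passed the unadjusted test, all lower under DFX, led by the hemoglobin transcript HBA2 (−1.93 on the log2 scale, limma adjusted p = 0.093). Of the endothelial probes 5 of 9 passed, 3 of PECAM1 higher (1.27 on the brightest) and 1 each of ENG and TIE1 lower (−1.09 and −0.78). The ENG probe was well above background on only 1 DFX array, and 1 of the PECAM1 probes on 0 control arrays and 1 DFX array. Of the fibroblast probes 5 of 12 passed, with COL6A1 and LUM higher (1.37 and 0.87) and 3 lower, among them DCN and PDGFRA (−1.30 and −1.12), and of the leukocyte probes 0 of 7 by the unadjusted or the adjusted limma test. The median difference was −0.45 over 5 red blood cell genes, −0.43 over 6 endothelial genes, −0.30 over 11 fibroblast genes, 0.18 over 6 leukocyte genes and 0.23 over the 8 epithelial genes. These medians moved with the processing, from −0.83 to −0.06 for red blood cells (the latter without control replicate 1), −0.61 to −0.19 for endothelium, −0.59 to −0.10 for fibroblasts, 0.00026 to 0.21 for leukocytes and 0.10 to 0.29 for epithelium. In each tumor the median deviation of the red blood cell genes was −0.19 to 0.12 in controls and −0.64 to −0.18 under DFX, that of the endothelial genes −0.23 to 0.12 and −0.78 to −0.33, that of the fibroblast genes −0.31 to 0.36 and −0.39 to −0.18, and that of the epithelial genes −0.10 to 0.11 and 0.20 to 0.30. For the leukocyte genes it was −0.14 to 0.08 in controls and −0.04 to 0.11 under DFX, ranges that overlap. Of the endothelial genes 1 was well above background on no array. The part of these differences in the values below was not tested, nor was binding of mouse RNA to the human probes. In bulk tumors, fewer cells of a type and less RNA per cell cannot be told apart.

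The question was whether the level of these RNAs differed between DFX-treated and control tumors. For 53 of the 54 tested probes no difference passed the test, and the exception was a dim HOTAIR probe. That is 1.85% of the member probes past an unadjusted limma p under 0.05, the threshold of the study, where 8.41% of all tested probes passed, 4.95% lower and 3.46% higher in DFX-treated tumors. After Benjamini-Hochberg adjustment over all probes the limma test called none of the members and 0% of the array, and the adjusted p of the members ran from 0.582 to 0.998. The groups did not overlap for 3 member probes (5.56%), all lower under DFX, whereas 15.5% of all probes did not overlap in either direction and 9.15% did so downward. Both member counts were below the share of the array as a whole.

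Across the 54 probes the log2 difference ran from −0.43 to 0.25, with a median of −0.14 where the median of all tested probes was −0.02. The 95% interval lay within 1 log2 unit of 0 in either direction for 48 of the 54, and for all 10 of the brightest probes, 1 for each RNA. The widest, −1.56 to 0.75, was that of HOTAIR probe A_21_P0010503 (−0.40), which was well above background on only 1 DFX array. The means of 45 probes (83.3%) were below and of 9 above the control mean, while 54.4% of all tested probes were below. These shares shifted with the scaling: under median scaling of the arrays, which moved the median of all probes to −0.10, they were 94.4% and 67.0%. Probes of 1 RNA share a gene and the same tumors and are not independent, and over the brightest probes the split was 6 below and 4 above with a median of −0.05. The plots of levels and of fold changes show both views.

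**Figure D1:**
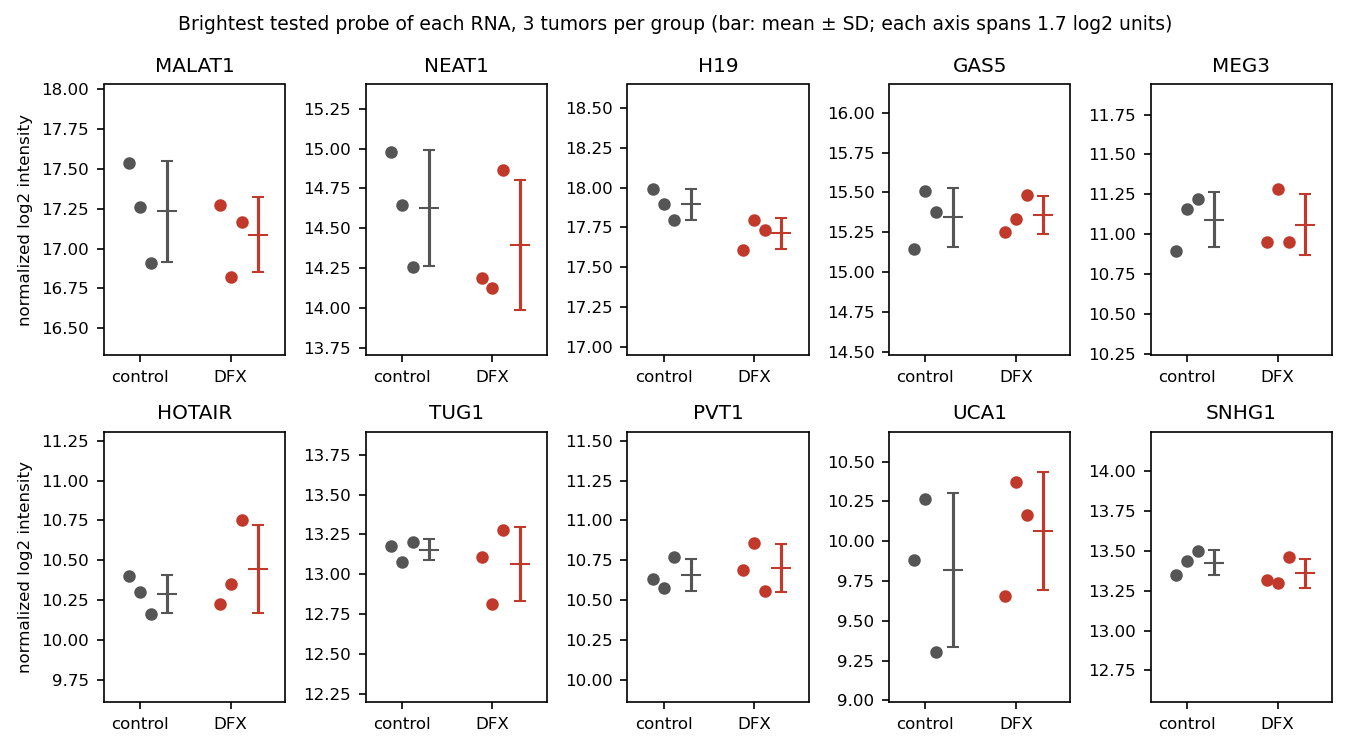
Normalized log2 intensity of the brightest tested probe of each of the 10 RNAs in 3 control (gray) and 3 DFX-treated (red) tumors, with the mean ± SD at the side; each vertical axis spans the same range in log2 units but starts at its own level. No RNA shows groups that separate, and the tumors lie closest together for SNHG1 and spread most for NEAT1 and UCA1.

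**Figure D2:**
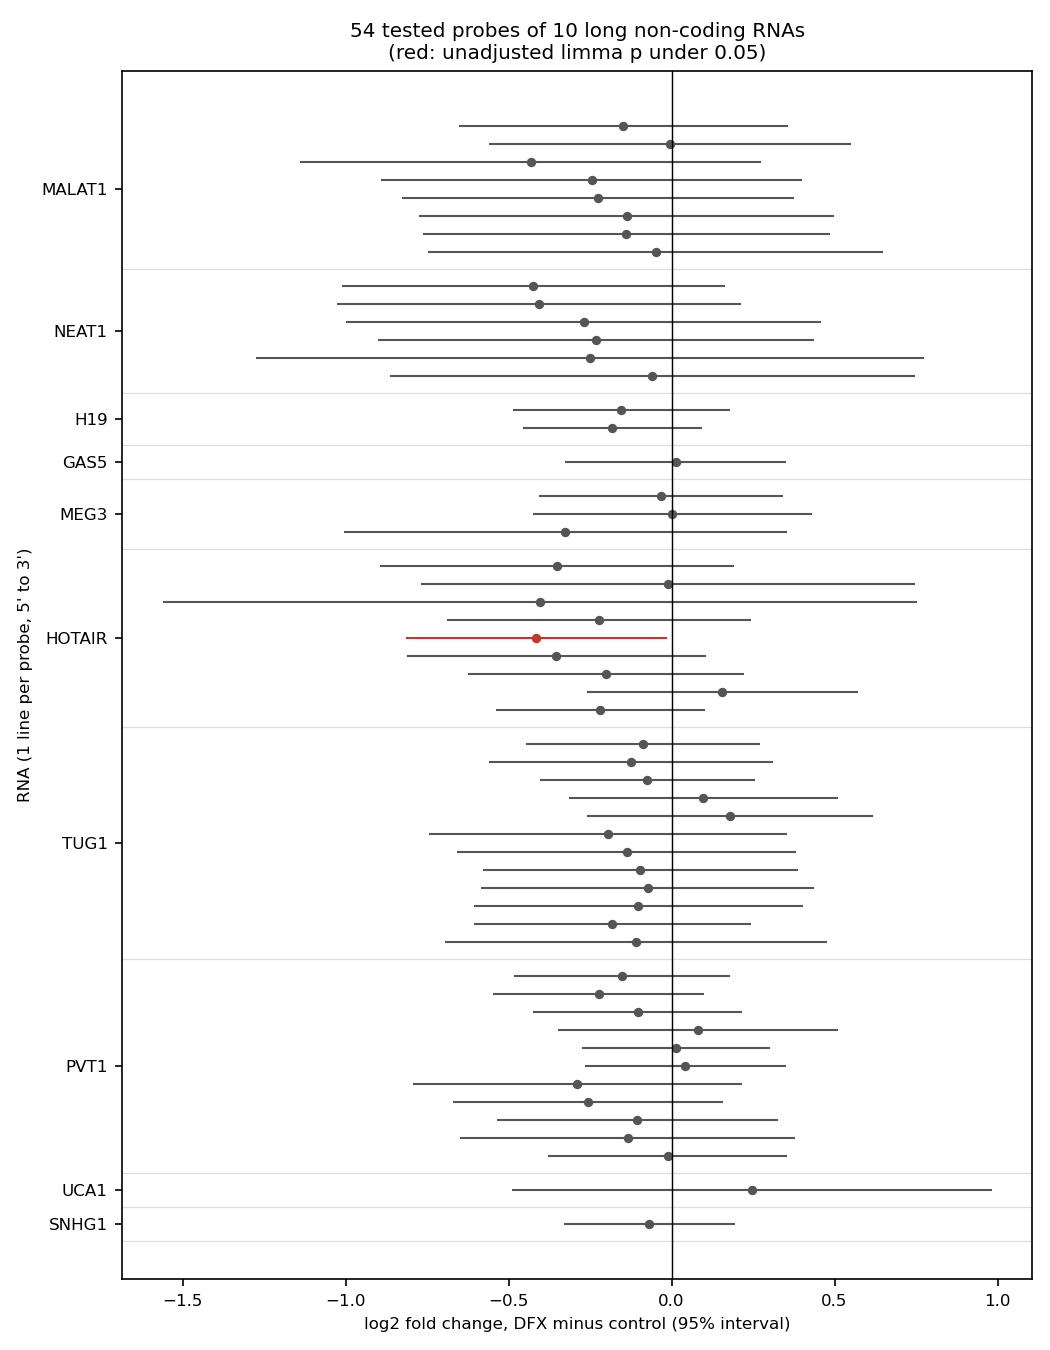
Log2 fold change of DFX-treated over control tumors (horizontal axis) for the 54 tested probes, grouped by RNA and ordered 5′ to 3′, with points for estimates and lines for 95% intervals from limma. The points run from −0.43 to 0.25, and the single red point is the HOTAIR probe whose interval, −0.81 to −0.02, does not reach 0.

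No probe of MALAT1, the speckle RNA, passed the test. Its brightest probe, the most 5′ one, read 17.54, 17.26 and 16.91 in controls and 17.27, 16.82 and 17.16 in the DFX-treated tumors. The means were 17.23 ± 0.32 and 17.09 ± 0.23 (SD, n = 3 each), a log2 difference of −0.15 with a 95% interval of −0.65 to 0.35. The lowest and the highest value lay in different groups and the other 4 tumors mixed. All 8 probes had a mean below the control mean, from −0.43 to −0.01, and none passed the test or separated the groups.

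The variation of MALAT1 was between tumors of a group. Averaged over its 8 probes and relative to each probe's mean, control replicate 1 stood at 0.40 and control replicate 2 at 0.24, but control replicate 3 at −0.38. The DFX-treated tumors stood at −0.03, −0.31 and 0.07. Control replicate 1 was highest on 5 probes and control replicate 2 on the other 3, and the lowest tumor was control replicate 3 on 4 probes and DFX replicate 2 on 4. The probe with the largest difference, at chr11:65272646-65272705, read 12.53, 12.60 and 11.66 in controls against 12.07, 11.56 and 11.85 (−0.43, limma adjusted p = 0.709). Without control replicate 3 that difference was −0.73 (limma adjusted p = 0.540) and passed the unadjusted threshold, so that the call depended on 1 control tumor.

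NEAT1 followed a similar course. Its brightest probe, at chr11:65193885-65193944, read 14.98, 14.65 and 14.25 in controls and 14.19, 14.13 and 14.87 in the DFX-treated tumors. The means were 14.63 ± 0.36 and 14.39 ± 0.41, a difference of −0.23 with a 95% interval of −0.90 to 0.43. DFX replicates 1 and 2 were below every control, whereas DFX replicate 3 was second only to control replicate 1. This held across the RNA: control replicate 1 was highest on all 6 probes, with a mean deviation of 0.49, and DFX replicate 3 stood at 0.35 against −0.36 and −0.39 for the other treated tumors. Both RNAs, from neighboring genes of chromosome 11, were high in control replicate 1 (0.49 and 0.40) and low in control replicate 3 (−0.30 and −0.38), and they differed most in DFX replicate 1 (−0.36 and −0.03).

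The estimated difference of NEAT1 was larger in size at its most 5′ than at its most 3′ probe. The first of the overlapping 5′ probes read 10.32, 10.19 and 9.92 in controls and 9.44, 9.51 and 10.21 under DFX, a difference of −0.42 (limma adjusted p = 0.668). The second read 10.27, 9.99 and 9.84 against 9.31, 9.43 and 10.15, a difference of −0.41 (limma adjusted p = 0.689). On the most 3′ probe the difference was −0.06, with values of 10.59, 10.39 and 9.55 in controls and 9.77, 10.05 and 10.53 under DFX. Leaving out DFX replicate 3 gave −0.67 for both 5′ probes, which then passed the unadjusted threshold, with limma adjusted p-values of 0.545 and 0.549.

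Taking the 3′-most minus the 5′-most tested probe within each tumor removes any change that both probes share. Whether both end probes read the same form of an RNA, such as the long form of NEAT1, was not tested. For NEAT1 this value was 0.27, 0.20 and −0.37 in controls and 0.33, 0.54 and 0.32 in the DFX-treated tumors. Every DFX value was above every control value, and the mean difference was 0.37. The two-sided exact permutation p was 0.1, the smallest that 3 against 3 tumors allow, and 0.6 after Benjamini-Hochberg adjustment over the 6 RNAs with 3 or more tested probes. Without control replicate 3 the mean difference was 0.17. This measure was chosen after the values had been seen. The same difference was 0.10 for MALAT1 (exact p = 0.6), 0.14 for PVT1 (exact p = 0.5), 0.13 for HOTAIR (exact p = 0.5), −0.02 for TUG1 (exact p = 0.9) and −0.29 for MEG3 (exact p = 0.6).

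**Figure D3:**
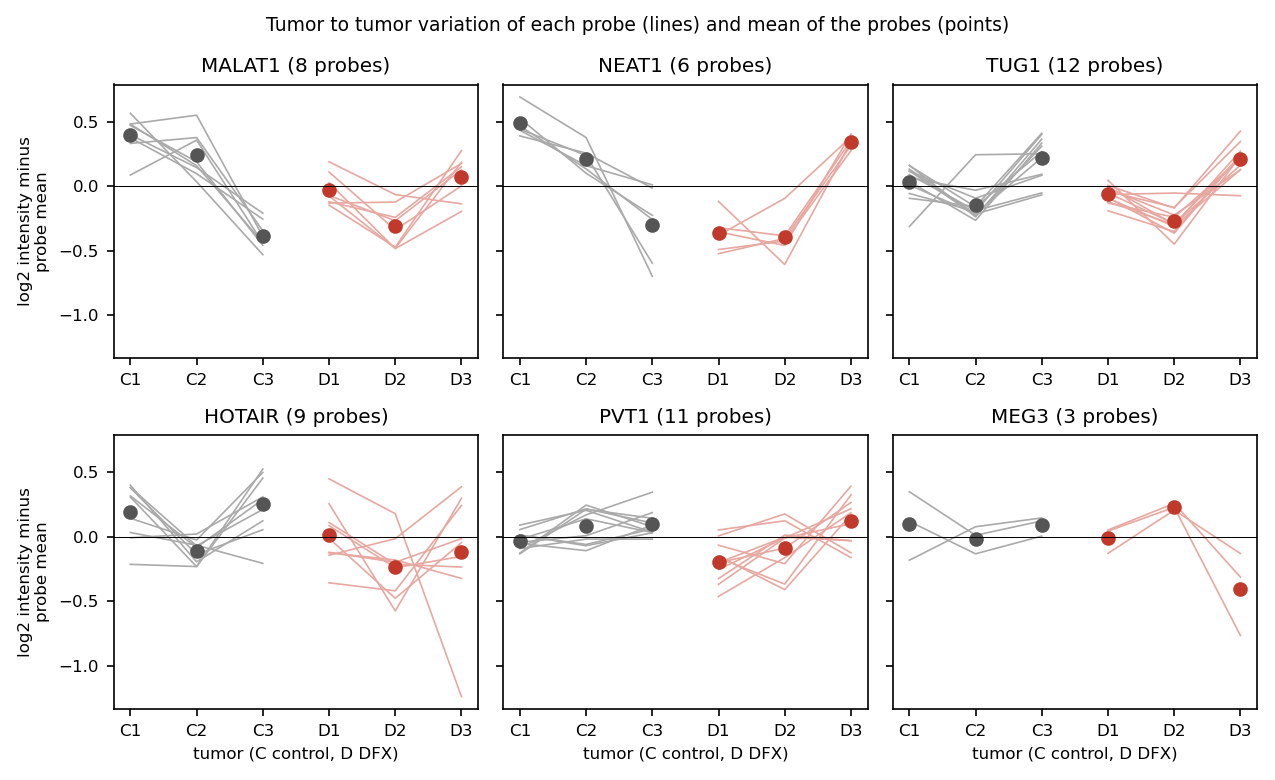
Log2 intensity minus the mean of the same probe over 6 tumors (vertical axis) in control tumors C1 to C3 and DFX-treated tumors D1 to D3 for 6 RNAs; thin lines are single probes and points the mean of the probes. Probes of MALAT1, NEAT1 and TUG1 move together from tumor to tumor, with C1 at 0.49 and D3 at 0.35 for NEAT1, while the MEG3 and HOTAIR probes diverge in D3.

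**Figure D4:**
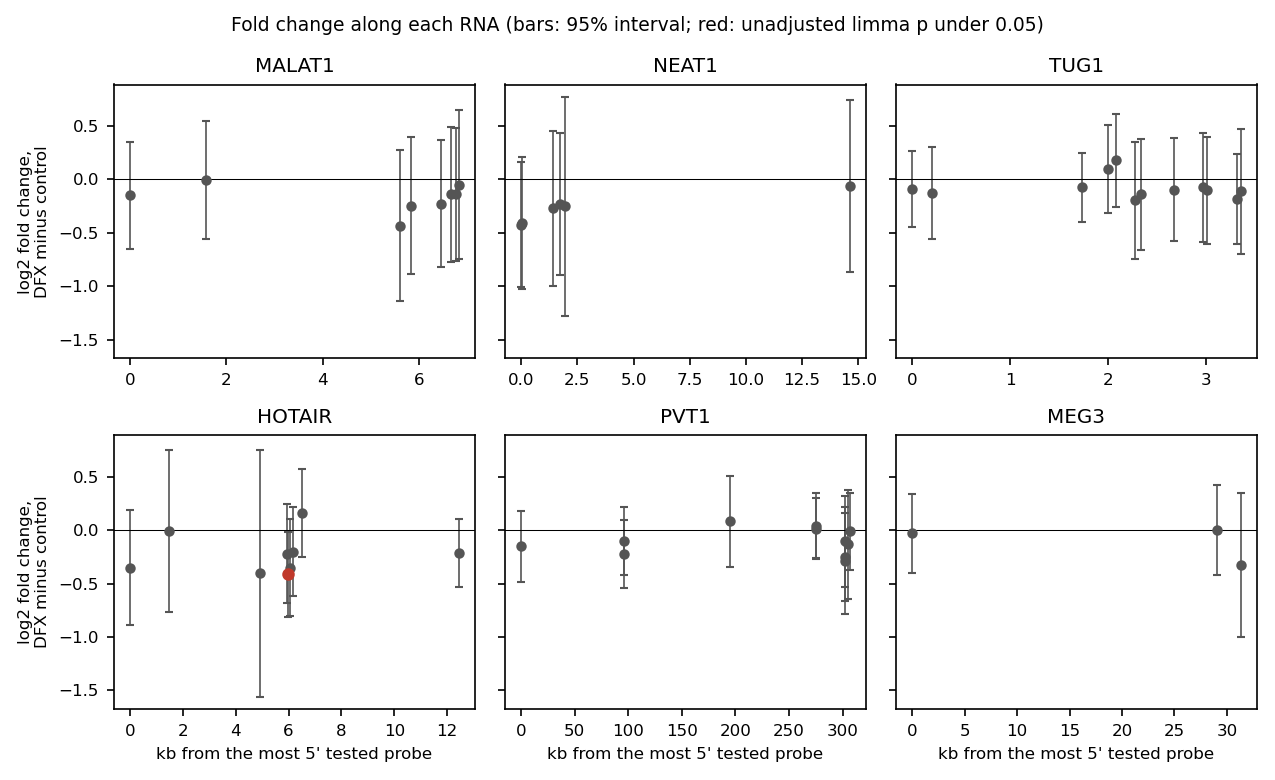
Log2 fold change of each tested probe (point, with its 95% interval) against its distance in kb along the genome from the most 5′ tested probe, for 6 RNAs. NEAT1 goes from −0.42 at its most 5′ to −0.06 at its most 3′ probe, and all intervals except that of 1 HOTAIR probe (red) include 0.

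Genes for proteins that build paraspeckles and speckles showed no common direction. Of 24 such genes, all tested, the brightest probes of 16 were above and of 8 below the control mean, with a median of 0.05 that became −0.048 under median scaling and −0.038 with each gene's probes averaged. In all, 3 of 46 probes passed the test (6.52%). NONO, PSPC1 and SFPQ, paraspeckle core proteins, differed by 0.02, −0.07 and 0.21 on their brightest probes. Their other tested probes differed by −0.30, −0.27 and 0.10, and none of these probes passed. On that dimmer NONO probe the groups did not overlap. SRRM2, a speckle scaffold protein, was higher on 1 probe, at 7.49, 7.56 and 7.50 in controls and 8.01, 7.73 and 8.18 under DFX (0.46, limma adjusted p = 0.536). Its brighter probe differed by 0.24 and did not pass. NUDT21, a subunit of the cleavage factor that selects polyadenylation sites, was lower on 1 probe by −0.33 (limma adjusted p = 0.581) and differed by 0.03 on its brighter probe. HNRNPH3, an RNA-binding protein of paraspeckles, was lower on 1 probe by −0.42 (limma adjusted p = 0.580), and its brighter probe differed by −0.19.

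H19 varied less between tumors than MALAT1 did, with a residual SD above that of 12.5% of tested probes against 63.0%. Its brightest probe read 17.99, 17.90 and 17.80 in controls and 17.61, 17.80 and 17.74 in the DFX-treated tumors. The means were 17.89 ± 0.10 and 17.71 ± 0.10, a log2 difference of −0.18 and a fold of 0.882, with a 95% interval of −0.45 to 0.09 (limma adjusted p = 0.685). The groups met at the lowest control and the highest treated tumor. The other probe, at chr11:2016961-2017020, read 17.23, 17.12 and 16.85 against 16.81, 16.96 and 16.96, a difference of −0.15. IGF2, the growth factor gene on the other side of the shared imprinting control region, spread widely at 12.56, 13.91 and 10.97 in controls and 13.16, 12.59 and 12.28 under DFX, so that its difference of 0.20 had an adjusted limma p of 0.953.

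MEG3, the other imprinted RNA, was read by 4 probes, of which 3 were tested. The brightest, at chr14:101295974-101296033, gave 10.90, 11.15 and 11.22 in controls and 10.95, 11.28 and 10.95 under DFX. The means of 11.09 ± 0.17 and 11.06 ± 0.19 differed by −0.03, with a 95% interval of −0.40 to 0.34. A second probe differed by 0.002, and the 3′-most, well above background on 5 of 6 arrays, by −0.33 with an interval of −1.001 to 0.350. DFX replicate 3 was the lowest tumor on the latter 2 probes. The probe at chr14:101297360-101297419 was not well above background on any array and was not tested. DLK1, the paternally expressed neighbor, read 6.64, 6.53 and 6.92 in controls and 6.45, 6.50 and 6.38 under DFX, groups that did not overlap, with a difference of −0.25 that did not pass (limma adjusted p = 0.654).

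HOTAIR held the only member probe past the threshold. A_19_P00330814 read 5.91, 5.74 and 6.27 in controls and 5.64, 5.59 and 5.44 in the DFX-treated tumors. The means of 5.97 ± 0.27 and 5.56 ± 0.10 differed by −0.41 ± 0.16 (SE), with a 95% interval of −0.81 to −0.02 (limma adjusted p = 0.582). All treated tumors were below all controls, by 0.10 between the nearest. It was well above background on all 6 arrays, though close to the dim end of the array. The probe that shares 19 bases with it read 5.00, 4.40 and 4.72 against 4.71, 4.38 and 4.36, a difference of −0.22 (limma adjusted p = 0.757) with overlapping groups, and was well above background on 5 arrays. The call was not stable: A_19_P00330814 passed in 7 of 18 alternative fits, and in 1 of the 6 that left out a tumor, the one without control replicate 2 (−0.53, limma adjusted p = 0.637).

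The other HOTAIR probes ranged on both sides of 0. Of 9 tested probes 8 were below the control mean and 1 above, from −0.41 to 0.16. The brightest, at chr12:54356096-54356155, read 10.40, 10.30 and 10.16 in controls and 10.22, 10.35 and 10.75 under DFX, a difference of 0.16 with a 95% interval of −0.25 to 0.57, and lies 464 bases from the probe that passed. The most 3′ probe, at chr12:54350159-54350218, read 6.63, 6.66 and 6.95 against 6.52, 6.44 and 6.62, and its groups did not overlap, but its difference of −0.22 did not pass (limma adjusted p = 0.675). It starts 12434 bases from the first HOTAIR probe, and the nearest other probe starts at 6497. Whether it reads the same RNA as the others was not tested. Of the 9 probes, 4 missed the well-above-background mark on at least 1 array. HOXC10, a homeobox gene of the same cluster, differed by −0.21 (limma adjusted p = 0.834), and HOXC11, the homeobox gene beside HOTAIR, was not well above background on any DFX array.

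Polycomb proteins and other chromatin partners studied with HOTAIR, 16 genes, had a median difference of −0.02, which became −0.13 under median scaling and 0.018 without control replicate 3, with 10 below and 6 above the control mean and 1 of 25 probes past the test (4%). That probe belonged to CBX7, a reader subunit of polycomb repressive complex 1, at 10.98, 10.86 and 10.82 in controls and 10.59, 10.698 and 10.61 under DFX (−0.25, limma adjusted p = 0.592). A second CBX7 probe differed by −0.09 and did not pass. EZH2, the methyltransferase of polycomb repressive complex 2, differed by 0.16, SUZ12 by 0.05 and EED by −0.02, and none passed.

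GAS5 and SNHG1, the hosts of small nucleolar RNAs, had no probe past the test. The GAS5 probe read 15.14, 15.51 and 15.38 in controls and 15.25, 15.33 and 15.48 in the DFX-treated tumors. The means of 15.34 ± 0.19 and 15.36 ± 0.12 differed by 0.01, with a 95% interval of −0.32 to 0.35, and the treated tumors lay inside the range of the controls. The sign of so small a difference was not stable and became −0.07 under median scaling and −0.08 with array weights. SNHG1 read 13.35, 13.44 and 13.50 against 13.32, 13.30 and 13.46. Its means of 13.43 ± 0.08 and 13.36 ± 0.09 differed by −0.07, with an interval of −0.33 to 0.19, and its residual SD was lower than that of 91.4% of tested probes.

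The other snoRNA hosts did not pass the test either. Of 17 listed, 11 had a tested probe, 8 with a mean above and 3 below the control mean, with a median of 0.11 that became −0.0040 under median scaling, −0.0068 with array weights and −0.0082 without control replicate 1, and 0 of 37 probes passed at an unadjusted or adjusted p under 0.05. SNHG5, for example, read 15.66, 15.78 and 15.76 in controls and 15.76, 15.86 and 15.67 under DFX (0.03). Factors of nonsense-mediated decay, 12 genes, had a median of 0.02, which became −0.089 under median scaling, with 8 above and 4 below and 1 of 28 probes called (3.57%). UPF1, the central helicase, differed by 0.03. The called probe belonged to SMG5, which helps to remove phosphate from UPF1, and read 6.47, 6.46 and 6.44 in controls and 7.25, 7.01 and 7.33 under DFX (0.74, limma adjusted p = 0.504). The brighter SMG5 probe read 10.95, 11.12 and 11.04 against 11.14, 11.06 and 10.88, a difference below 0.01 in size, so the probes of this gene disagreed. WDR74 and SLC3A2, the genes next to SNHG1, differed by −0.17 and −0.26, and ZBTB37, next to GAS5, by 0.04, and none passed.

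TUG1 had the most probes of the 10 RNAs, 12 whose starts span 3350 bases, all well above background on every array. The brightest, at chr22:31371927-31371986, read 13.18, 13.08 and 13.20 in controls and 13.11, 12.81 and 13.27 in the DFX-treated tumors. The means of 13.15 ± 0.07 and 13.07 ± 0.23 differed by −0.09, with a 95% interval of −0.44 to 0.27. DFX-treated tumors were both the lowest and the highest of the 6. Over the RNA 10 probes were below and 2 above the control mean, from −0.20 to 0.18, with no call. DFX replicate 2 was the lowest tumor on 9 of 12 probes, at a mean deviation of −0.27, while DFX replicate 3 stood at 0.21 and control replicate 3 at 0.22. The probes above the control mean are neighbors, which start 1996 and 2078 bases from the first, and DFX replicate 3 was highest on both. MORC2, the adjacent gene, encodes a chromatin ATPase and differed by −0.34 (limma adjusted p = 0.660).

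PVT1 was read by 11 probes whose starts span 306502 bases of chromosome 8, all well above background on every array. Its brightest probe read 10.63, 10.57 and 10.77 in controls and 10.69, 10.86 and 10.56 under DFX. The control mean was 10.66 ± 0.10 and the DFX mean, with an SD of 0.15, differed from it by 0.04, with a 95% interval of −0.26 to 0.35, and the treated tumors spanned the controls. Of the 11 probes 8 were below and 3 above the control mean, from −0.29 to 0.08. The probe at chr8:128902858-128902917 read 7.33, 7.44 and 7.28 in controls against 6.92, 7.25 and 7.21 under DFX, and its groups did not overlap (−0.22, limma adjusted p = 0.674). The adjoining probe, which starts 60 bases on, differed by −0.10 with overlapping groups. DFX replicate 1 was the lowest tumor on 6 probes. MYC read 11.76, 12.55 and 12.91 in controls and 12.13, 11.99 and 12.05 under DFX, a difference of −0.35 that did not pass (limma adjusted p = 0.752), with the lowest value in a control.

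UCA1 had 1 probe and the widest spread of the brightest probes. It read 9.88, 10.27 and 9.30 in controls and 9.65, 10.37 and 10.16 in the DFX-treated tumors. The means of 9.82 ± 0.48 and 10.06 ± 0.37 differed by 0.25, the largest difference above 0 among the 54 probes, with a 95% interval of −0.49 to 0.98. Control replicate 3 was the lowest tumor, as it was on 4 MALAT1 probes. The neighboring CYP4F11, a fatty acid hydroxylase, differed by 0.57 (limma adjusted p = 0.655) and CYP4F2 by −0.07, and neither passed.

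Of 34 other long non-coding RNAs listed, 21 were tested, 12 below and 9 above the control mean with a median of −0.01, which became −0.11 under median scaling, and 4 of 41 probes passed (9.76%). RMRP, the RNA of a mitochondrial and nucleolar ribonuclease, read 11.06, 11.07 and 10.67 in controls and 11.30, 11.44 and 11.27 under DFX (0.40, limma adjusted p = 0.578), and was the only one called on its brightest probe. MIAT passed on 2 dim probes in opposite directions, 1 of which was not well above background on any DFX array. FTX, an RNA of the X-inactivation center, passed on a probe not well above background on any DFX array, and its brighter probe differed by −0.02. Among the genes beside the members, 21 were tested and 1 of 27 probes passed (3.70%), a probe of LTBP3 not well above background on any DFX array, whose brighter probe differed by −0.21 (limma adjusted p = 0.722).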

How the data were processed

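RNA of 3 control and 3 DFX-treated xenografts was measured, 1 tumor per array. The labels gave the groups and replicate numbers. Nothing states whether the tumors of a group shared a cage or a cell batch. The limma p-values set the difference of the means against the spread between these tumors, moderated by that of all tested probes. Arrays hold no read depth, and the number of tumors limits the precision. The members and gene lists were chosen with earlier results of these data known.

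The authors deposited 1 scanner file per array with spot intensities on a linear scale, not normalized between arrays, and a p-value of each spot against its background. The files name Agilent Feature Extraction 10.7.1.1 and the submitters' processing notes 9.5.1.1. The authors also deposited a table of processed intensities, which differed from the values used here by a median of 0.0068 (log2) and served as an alternative.

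The study's methods give log2 and quantile normalization of the raw signal. Here the background-subtracted signal was used, with the raw mean signal as an alternative. It was put on a log2 scale and quantile-normalized across arrays (58717 non-control spots). The 1398 spot values flagged as outliers were left out, replicate spots were averaged by probe, and only probes whose background p-value was under 0.05 on each of the 6 arrays were tested. The filter can pass probes below background, so the number of arrays well above background is given for dim probes. The comparison used limma 3.58.1 (lmFit, then eBayes; R 4.3.3), two-sided, with Benjamini-Hochberg adjustment over 31807 probes (prior degrees of freedom 2.04). The procedure was tested on simulated data in which 200 probes were changed by more than any member differed. That test therefore does not show how well differences as small as those of the members are found. No fold is given for a probe that rose well above background on none of a group's arrays. Levels of different probes are not on a common scale.

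Every tested member probe entered the counts, the ranges and the plot of fold changes, but not every one is given its own values above. Genes named from each other list were among the up to 4 with the lowest unadjusted p under 0.05, or were tested neighbors of a member. To these, NONO, PSPC1, SFPQ, EZH2, SUZ12, EED, SNHG5, UPF1 and LUM were added after their values were seen. HBD, SLC4A1 and SPARC also had a probe that passed but were not named above. Some neighbors and a sequence are not reported here. Gene lists were the snoRNA hosts, other long non-coding RNAs, neighbors, paraspeckle and speckle proteins, polycomb partners, nonsense-mediated decay factors and markers of epithelial, fibroblast, leukocyte, endothelial and red blood cells. A gene was represented by its brightest tested probe. Alternatives covered the normalization, background, signal column, the authors' values, filters, test, blocks, weights and each tumor left out in turn. Replicate numbers were not taken to pair the tumors in the main fit, and a block by replicate number was one of the alternatives.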

Additional observations from a re-analysis of the deposited data

Results flagged for a closer look

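The SNHG1 probe at chr11:62619488-62619547 (A_33_P3507562) was not tested, and it read 5.27 in DFX replicate 2, the only array on which it was well above background. It read 3.18, 2.22 and 2.18 in controls and 2.25 and 2.99 in the other DFX-treated tumors.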

How the results depend on the processing

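There were 20 alternatives, of which at most 18 refitted each member probe. In those fits the adjusted limma test called 0 member probes, and at most 3 probes of the whole array. The count of member probes at an unadjusted p under 0.05 was 1 and became 0 with 75th percentile scaling, raw mean signal, the slide column as a block and no moderation of the variance, 2 under median scaling, and 3 under array weights or by the Kruskal-Wallis H test, which here counts probes whose groups do not overlap. It ranged from 0 to 4 when each tumor was left out, with the 4 of DFX replicate 3 left out being both 5′ NEAT1 probes, 1 of PVT1 and 1 of HOTAIR. The count without overlap was 3 and became 1 under scaling to the 75th percentile and 5 under median scaling, and ranged from 4 to 14 when a tumor was left out, since fewer tumors overlap less. Across the array 2675 probes were called, against 1418 with the slide column as a block, 4213 with array weights and 4927 with the Kruskal-Wallis H test. Control replicate 2 and DFX replicate 1 were alone in their slide columns. The column block therefore compared only control replicates 1 and 3 with DFX replicates 2 and 3. With the replicate block the array count was 2419 and the member count 1, on another HOTAIR probe, A_21_P0010502 (−0.35, limma adjusted p = 0.647). Of 967 alternative fits of single member probes, 891 kept the sign and 76 changed it, and 26 of the 54 probes never changed. Among the brightest and end probes, median scaling turned GAS5 to −0.067 and PVT1 A_19_P00322939 to −0.075. The slide column as a block turned MEG3 A_32_P40547 to 0.056, MALAT1 A_19_P00805006 to 0.0093, the most 3′ NEAT1 probe to 0.22 and PVT1 A_33_P3357748 to 0.052. Array weights turned GAS5 to −0.082, UCA1 to −0.11 and TUG1 A_19_P00328886 to 0.0095. When tumors were removed 1 at a time, the ranges that crossed 0 were −0.31 to 0.0038 for MALAT1 A_21_P0010981, −0.33 to 0.22 for MALAT1 A_19_P00805006, −0.37 to 0.15 for the most 3′ NEAT1 probe, −0.087 to 0.097 for GAS5, −0.14 to 0.035 for MEG3 A_32_P40547, −0.19 to 0.038 for TUG1 A_23_P68868, −0.26 to 0.087 for TUG1 A_19_P00328886, −0.036 to 0.11 for PVT1 A_19_P00322939, −0.15 to 0.084 for PVT1 A_33_P3357748 and −0.010 to 0.47 for UCA1. Of the gene list medians under alternatives, 177 stayed within their spread between tumors and 32 moved beyond it. The cause of these changes was not tested. Probes that were dim on some arrays, 4 of HOTAIR and 1 of MEG3 among those tested, are limited by signal over background.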
